A study of Homo sapiens with 4 samples.

Results

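The genes described here are 50 genes of the origins and forks of DNA replication, taken by name from the deposited transcript table and followed in H1299, an established human line from a lung carcinoma of the non-small-cell kind. All 50 names were found, with 440 of the 206601 annotated transcripts and 50 of the 58735 genes in the table. Poly(A) RNA was sequenced from cells kept for 48 h with the preservative methylparaben at 0.5 mM (2 libraries) and from ethanol controls (2 libraries). Neither the dose nor the duration of ethanol is labelled. Duplicates are not said to be separate cultures, and p-values thus cover only the variation among these libraries, possibly technical.

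Replication starts when the origin recognition complex (ORC) binds DNA and, with CDC6 and CDT1, loads the ring-shaped MCM helicase in G1 phase. In S phase the kinase CDC7 with DBF4, the cyclin-dependent kinases, MCM10, CDC45 and the GINS complex turn the ring into an active helicase, behind which primase, the polymerases, the PCNA clamp with its RFC loader, and the enzymes that join Okazaki fragments copy both strands. RPA coats the single strands, TYMS, RRM1, RRM2 and TK1 supply deoxynucleotides, and WDHD1, TIMELESS and CLSPN hold the fork together and pass on checkpoint signals. Many of these genes are known targets of the E2F transcription factors, which act before and during S phase, and their mRNA is generally abundant in proliferating cells.

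Library totals came to 3760982 and 2068486 counts in the methylparaben libraries and 2368658 and 2182058 counts in the ethanol libraries. For a gene at 0 counts, levels could reach 0.798 and 1.45 CPM (counts scaled to the depth of the library) in the methylparaben libraries and 1.27 and 1.37 CPM in the ethanol libraries, the limit being 3 counts of each library total before TMM scaling and covering counting error only. Replicates of each group differed by more than counting noise, the ratio of chi-square to its degrees of freedom being 13.5 in methylparaben and 5.34 in ethanol. Of the lung epithelial markers NKX2-1, SFTPB, SFTPC, SFTPA1, SCGB1A1, NAPSA, EPCAM, CDH1, KRT8, KRT18 and KRT19, only KRT8 and KRT18 had reads, and 7 of 7 blood and immune and 3 of 3 hepatocyte markers were at 0. The summed level of the 11 epithelial markers was 15.8 and 14.7 CPM with methylparaben and 17.0 and 8.22 CPM with ethanol, and that of the 4 mesenchymal markers VIM, CDH2, ZEB1 and FN1 was 38.4 and 36.6 CPM with methylparaben and 91.4 and 72.3 CPM with ethanol. VIM gave most of the mesenchymal sum, at 35.6 and 32.4 CPM with methylparaben and 88.0 and 68.0 CPM with ethanol. Of its reads 0 lay on protein-coding transcripts and 77.7% on transcripts annotated for nonsense-mediated decay. CDH2, ZEB1 and FN1 had 1, 4 and 31 counts in all, too few to test. The part of this mesenchymal difference in the results was not tested.

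The deposited counts show only part of each gene. Bases covered by 1 annotated transcript alone appear to be the only ones counted, for among 70749 transcripts lacking any, 0 had a read. Over the 50 replication genes, the median share of exonic bases that belong to a single transcript was 34.8%, between 2.44% for ORC1 and 90.2% for GINS2. Of the 50 genes, 24 had enough counts to test and 26 did not. The untested genes had a median of 183 single-transcript bases on protein-coding transcripts, against 1130.5 for the tested ones, and 19 of the 26 had fewer than 500 such bases, against 5 of the 24. Among the untested, 9 genes had 0 counts in every library, namely ORC1, MCM2, MCM10, CDC45, POLD1, PCNA, RFC2, RRM1 and TK1, which include textbook S-phase genes. PCNA has 239 single-transcript bases of 1471 exonic bases and TK1 has 180 of 1861. MCM2 has 1245 of 4902, with 758 of them on protein-coding transcripts. FEN1 has 950, all on protein-coding transcripts, and had 590 counts. Another 10 genes had 1 to 9 counts in all (CDT1, MCM7, CDC7, GINS3, GINS4, POLA1, PRIM1, LIG1, TYMS and RRM2), and 7 had between 14 and 32 counts.

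**Figure D1:**
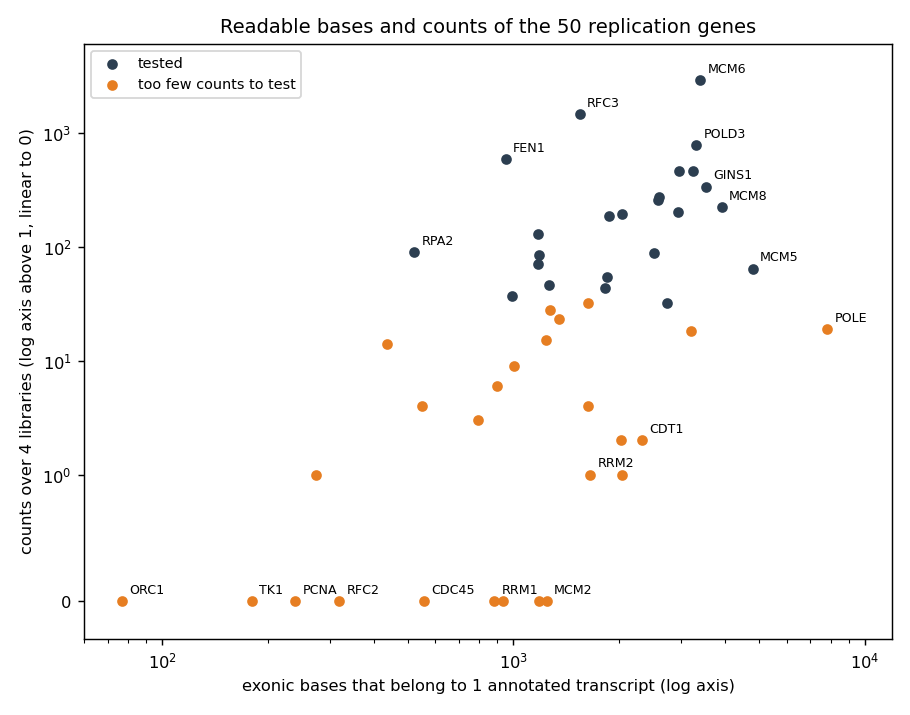
Each point is 1 of the 50 replication genes, with its single-transcript exonic bases on the x axis (log scale) and its counts over the 4 libraries on the y axis (log scale above 1, linear to 0). Tested genes have 522 to 4804 such bases, and the 9 genes on the bottom line, PCNA and MCM2 among them, have no read.

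More of the tested replication genes fell than rose in methylparaben-treated cells. The list was chosen with earlier results of these data known, so its comparison with all genes is descriptive and not an independent test. Of the 24 tested, 9 fell (MCM6, MCM8, GINS1, GINS2, POLD3, POLE2, RFC3, FEN1 and WDHD1), by 1.60-fold to 4.29-fold, and 2 rose, ORC4 and RFC1, the other 13 not passing the threshold of an adjusted p of 0.05 in edgeR's quasi-likelihood test. Over all 8055 genes tested, 18.4% were lower and 18.5% were higher by the same rule (36.9% in either direction). The median log2 fold change of the 24 was -0.75, and 17 of them were below 0. Over all genes tested the median was 0.03, and 48.7% were below 0. A sparse gene could pass the filter on 1 group alone, which partly sets its sign. CDC6, GMNN, MCM4, MCM5, POLE2 and RPA2 reached 10 counts in both ethanol libraries but not in both methylparaben ones. DBF4, ORC4 and RFC1 did the reverse. The filter scales this minimum by library size, so raw counts of 10 only approximate it. By the scaled minimum DBF4 did not pass on methylparaben alone, and MCM4, ORC4 and RPA2 also reached it in a library of the other group. With no filter beyond 1 count in total, 26 of 41 genes were below 0, with a median of -0.68 (0.03 over all genes). In bulk RNA, fewer cells in S phase and less of each mRNA per cell cannot be told apart. Without ethanol replicate 1, where fewer of all genes were called too, MCM6, POLD3 and POLE2 lost the call. Their log2 fold changes were then -0.74, -0.72 and -2.01. FEN1, GINS1, GINS2, MCM8, RFC3 and WDHD1 stayed lower, and ORC4 and RFC1 higher, past the threshold when 1 choice of this gene fit was changed at a time, in 18 alternatives for those that fell and 17 for ORC4 and RFC1, which could not be tested on protein-coding transcripts alone. With 2 choices changed together, protein-coding transcripts only and either ethanol library left out, edgeR made no call among all genes. Those fits therefore cannot decide about the replication genes.

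Summed over the 50 genes, the share of a library's counts was 0.0668% and 0.0619% with methylparaben, against 0.116% and 0.124% with ethanol. MCM6 alone gave 31.2% and RFC3 15.8% of these counts, and without both the shares were 0.0385% and 0.0321% in the methylparaben libraries and 0.0610% and 0.0610% in the ethanol libraries. The summed share was thus lower in both methylparaben libraries whether or not the most counted genes were included. In 15 of the 24 tested genes both methylparaben libraries were below both ethanol libraries (35.0% of all tested genes were), and in 3 genes both were above (35.5% of all), namely ORC4, RFC1 and PRIM2.

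**Figure D2:**
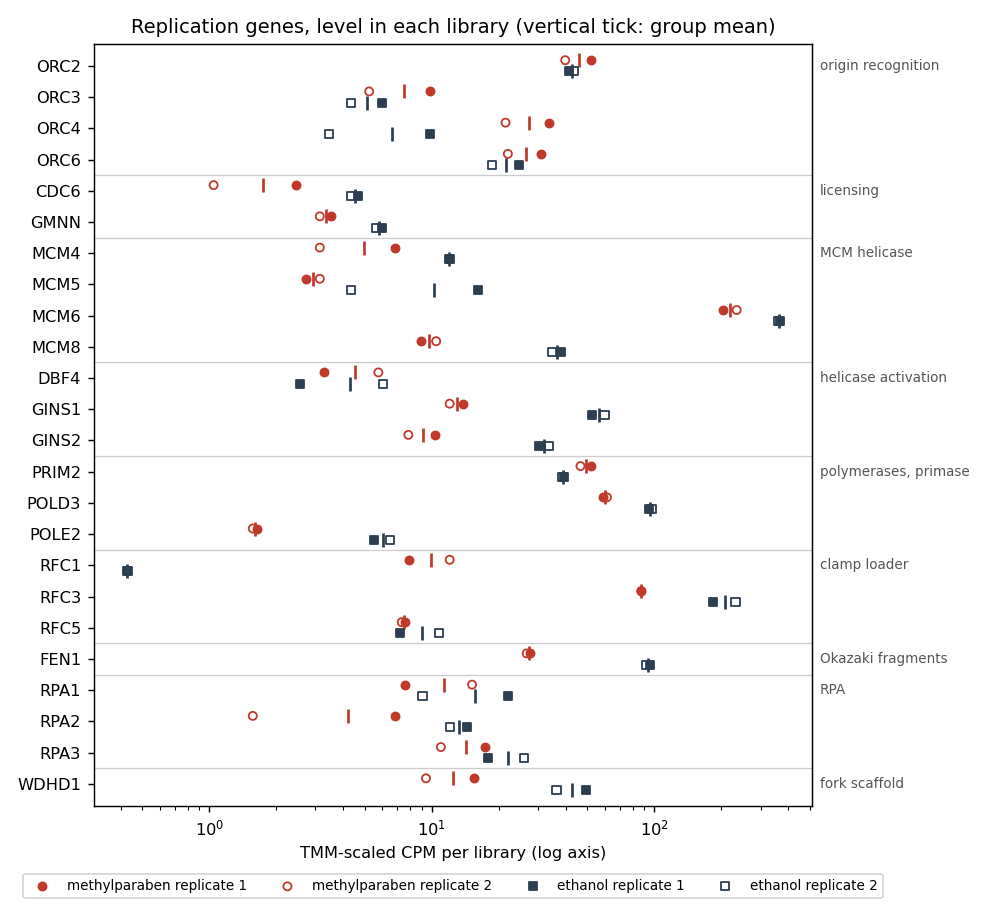
TMM-scaled CPM (log axis) of the 24 tested replication genes in each library, methylparaben as red circles above ethanol as dark squares, filled for replicate 1 and open for replicate 2, with a vertical tick at each group mean. The groups are far apart for GINS1, GINS2, MCM8, FEN1 and WDHD1 and overlap for ORC2, ORC3, ORC6, DBF4, RFC5 and RPA1.

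The promoters of the 4 genes lower with the smallest p (FEN1, GINS1, RFC3 and MCM8) are shown with that of MCM6, which was added after its matches were seen. Each window runs from 250 bases before to 50 bases after the transcription start, from RefSeq on GRCh38.p14, on the transcribed strand, and capitals mark matches on either strand to an E2F site (TTTCCCGC, TTTCGCGC, TTTGCCGC or TTTGGCGC) or a CCAAT box (CCAAT).
FEN1, chr11:61792661-61792960 (+): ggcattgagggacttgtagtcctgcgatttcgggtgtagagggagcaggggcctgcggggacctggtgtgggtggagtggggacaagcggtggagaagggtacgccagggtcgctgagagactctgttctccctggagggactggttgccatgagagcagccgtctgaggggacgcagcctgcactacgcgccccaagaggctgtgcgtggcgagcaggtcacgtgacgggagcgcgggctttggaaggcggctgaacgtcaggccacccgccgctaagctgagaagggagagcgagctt
GINS1, chr20:25407423-25407722 (+): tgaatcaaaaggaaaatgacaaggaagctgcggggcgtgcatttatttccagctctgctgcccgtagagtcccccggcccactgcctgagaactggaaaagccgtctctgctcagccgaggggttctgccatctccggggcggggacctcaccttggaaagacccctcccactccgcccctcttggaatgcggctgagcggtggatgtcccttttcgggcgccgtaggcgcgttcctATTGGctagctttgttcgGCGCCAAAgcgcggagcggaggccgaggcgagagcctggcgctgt
RFC3, chr13:33817899-33818198 (+): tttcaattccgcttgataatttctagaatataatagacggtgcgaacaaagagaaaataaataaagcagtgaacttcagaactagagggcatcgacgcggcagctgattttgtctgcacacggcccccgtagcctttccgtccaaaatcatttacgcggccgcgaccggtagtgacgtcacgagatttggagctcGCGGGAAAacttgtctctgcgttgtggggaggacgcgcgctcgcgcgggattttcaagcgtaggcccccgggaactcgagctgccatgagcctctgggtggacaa
MCM8, chr20:5950402-5950701 (+): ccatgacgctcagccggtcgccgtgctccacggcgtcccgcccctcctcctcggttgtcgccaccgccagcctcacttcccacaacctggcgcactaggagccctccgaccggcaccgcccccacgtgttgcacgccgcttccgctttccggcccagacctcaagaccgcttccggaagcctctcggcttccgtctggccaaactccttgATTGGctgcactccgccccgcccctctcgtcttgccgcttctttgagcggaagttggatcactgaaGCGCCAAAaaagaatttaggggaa
MCM6, chr2:135876394-135876693 (-): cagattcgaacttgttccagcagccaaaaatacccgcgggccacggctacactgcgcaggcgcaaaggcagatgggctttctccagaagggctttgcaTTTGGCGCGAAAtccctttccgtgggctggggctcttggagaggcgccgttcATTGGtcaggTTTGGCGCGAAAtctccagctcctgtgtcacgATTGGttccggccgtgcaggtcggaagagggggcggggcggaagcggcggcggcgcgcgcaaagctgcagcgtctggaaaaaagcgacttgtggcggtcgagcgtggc
GINS1 and MCM8 hold the E2F match GCGCCAAA just after the start, with its first base at 6 and 27 counted from 1 at the start, and an inverted CCAAT box before it. RFC3 holds GCGGGAAA with its first base 55 bases before the RefSeq start, and FEN1 holds neither motif in this window. In both genes the transcript that was read starts ahead of the RefSeq start. FEN1-201, with 586 of the 590 FEN1 counts, starts at 61792637, ahead of the whole window, so bases before that start were not searched. RFC3-201 starts at 33818049, and the RFC3 match lies after that start. MCM6 holds TTTGGCGC and GCGCGAAA overlapping each other at each of 2 places, which gives 4 E2F matches, and 2 inverted CCAAT boxes. Over the 44 genes with an entry (MCM4, MCM5, GINS4, POLD3, RPA2 and RPA3 have none), 22 of 56 windows (39.3%) held an E2F match, against 3.31% of all 35116 RefSeq windows of the same length. Windows of tested genes that fell held one in 6 of 8 cases, from 8 genes. Those of the other tested genes, ORC4 and RFC1 included, held one in 3 of 14, from only 11 genes. ORC4, PRIM2 and GMNN had 2 windows each, and the matches were in CDC6, GMNN and ORC3, so shares of windows and of genes differ here. A CCAAT box was in 31 of 56 windows (55.4%) against 34.6% of all, and the cell cycle homology element TTTGAA in 2 of 56 (3.57%) against 15.2% of all. The motifs were counted separately, so overlapping matches count for each, and a match is a run of letters and not a measured binding site.

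Among the origin recognition genes, which encode the complex that marks origins, ORC4 was higher and ORC2, ORC3 and ORC6 did not pass the threshold. ORC4 (chromosome 2, 147930397 to 148021604) had 33.5 and 21.5 CPM in the methylparaben libraries, against 9.78 and 3.46 CPM in the ethanol libraries. All methylparaben values lay above the ethanol ones, and the log2 fold change was 2.06 ± 0.49 (SE, n = 2 per group) with an adjusted p of 0.00948. The size rested on the ethanol libraries, at 2.96 without ethanol replicate 1 and 1.51 without ethanol replicate 2. Of the 195 ORC4 reads 0 lay on protein-coding transcripts, on which ORC4 has only 25 single-transcript bases, so its coding mRNA could hardly be read. ORC2 had 51.7 and 39.8 CPM in methylparaben libraries, against 41.3 and 43.7 CPM in ethanol libraries, with a log2 fold change of 0.12 ± 0.26. ORC6, read only on retained-intron transcripts, had 31.0 and 22.0 CPM against 24.7 and 18.6 CPM with ethanol, at 0.31 ± 0.33, and the groups overlapped in both. ORC3, with 9.80 and 5.23 CPM with methylparaben and 5.95 and 4.33 CPM with ethanol, was at 0.59 ± 0.54, and retained-intron transcripts held 88.6% of its reads. ORC5, not tested, had 14 counts with methylparaben and 18 with ethanol.

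Of the licensing genes, neither CDC6, which loads the helicase, nor GMNN, which encodes the CDT1 inhibitor geminin, passed the threshold. CDC6 had 2.45 and 1.05 CPM in the methylparaben libraries and 4.68 and 4.33 CPM in the ethanol libraries, at -1.23 ± 0.66 with an adjusted p of 0.171. GMNN had 3.54 and 3.14 CPM with methylparaben, against 5.95 and 5.63 CPM with ethanol, at -0.77 ± 0.56 with an adjusted p of 0.304. In both genes the methylparaben libraries lay below the ethanol ones. CDC6 had 11 counts with methylparaben and 21 with ethanol, of which protein-coding transcripts held 5 and 14. GMNN had 19 counts with methylparaben and 27 with ethanol. Retained-intron transcripts held 69.6% of the GMNN reads, 11 with methylparaben and 21 with ethanol. Protein-coding GMNN transcripts went the other way, with 8 counts with methylparaben and 6 with ethanol.

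Of the MCM genes, MCM6 and MCM8 were lower. MCM6 (chromosome 2, 135839626 to 135876426, GRCh38), a subunit of the helicase ring, was the most counted of the 50 genes. It had 203 and 234 CPM in the methylparaben libraries, against 366 and 358 CPM in the ethanol libraries. The groups did not overlap, and the log2 fold change was -0.73 ± 0.17 with an adjusted p of 0.00810, which was 0.0599 without ethanol replicate 1. MCM8 (chromosome 20, 5950652 to 5998977), a related helicase that is known to act in recombination repair and is not part of the ring, had 8.98 and 10.5 CPM with methylparaben, against 38.3 and 34.6 CPM with ethanol. Its log2 fold change was -1.92 ± 0.33 with an adjusted p of 0.00207. MCM4 had 6.80 and 3.14 CPM with methylparaben and 11.9 and 12.1 CPM with ethanol, at -1.19 ± 0.51 with an adjusted p of 0.0904, which was 0.0388 at -1.92 without methylparaben replicate 1. MCM5 had 2.72 and 3.14 CPM with methylparaben and 16.2 and 4.33 CPM with ethanol, at -1.81 ± 0.69 with an adjusted p of 0.0641. The value for MCM5 rested on ethanol replicate 1, at -0.59 without it and -2.45 (adjusted p = 0.0103) without ethanol replicate 2. Retained-intron transcripts held 78.2% of the MCM4 reads (20 with methylparaben, 48 with ethanol) and 67.2% of the MCM5 reads (11 with methylparaben, 32 with ethanol). Protein-coding transcripts had 9 counts with methylparaben and 5 with ethanol for MCM4, the other way. For MCM5 they had 3 with methylparaben and 15 with ethanol. MCM3, not tested, had 10 counts with methylparaben and 4 with ethanol.

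Among the genes that activate the helicase, GINS1 and GINS2, subunits of the GINS complex, were both lower, GINS1 with the largest decrease of the 9 genes that fell. GINS1 (chromosome 20, 25407727 to 25452628) had 13.9 and 12.0 CPM in the methylparaben libraries, against 52.7 and 59.7 CPM in the ethanol libraries. Its log2 fold change was -2.10 ± 0.29, a 4.29-fold decrease, with an adjusted p of 0.000669. GINS2 (chromosome 16, 85676198 to 85690073) had 10.3 and 7.85 CPM with methylparaben, against 30.2 and 33.8 CPM with ethanol, with a log2 fold change of -1.78 ± 0.35 and an adjusted p of 0.00371. Single-transcript bases make up 86.8% of the exonic bases of GINS1 and 90.2% of those of GINS2, the highest shares in the list, and all their reads lay on a protein-coding transcript. DBF4, the activator of the CDC7 kinase, had 3.27 and 5.76 CPM with methylparaben and 2.55 and 6.06 CPM with ethanol, so the groups overlapped, at 0.01 ± 0.67. Protein-coding transcripts held 5 of its counts with methylparaben and 15 with ethanol, and retained-intron transcripts held 18 with methylparaben and 5 with ethanol. The DBF4 sum thus joined types that moved in opposite directions, on few counts. Its value is also uncertain because of the processed pseudogene DBF4P1. That copy held 378 and 165 counts in the methylparaben libraries and 302 and 283 counts in the ethanol libraries. These are far more than the 43 counts of DBF4 in all, and the counting could split reads of near-identical copies.

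Of the polymerase and primase genes, POLD3 and POLE2, accessory subunits of polymerases delta and epsilon, were lower. POLD3 (chromosome 11, 74493851 to 74669117) had 58.8 and 61.2 CPM with methylparaben, against 94.8 and 97.4 CPM with ethanol, at -0.68 ± 0.21 with an adjusted p of 0.0296. The call was lost in 8 of 18 alternatives, among them DESeq2 (adjusted p = 0.0571) and leaving out ethanol replicate 1 (0.115), ethanol replicate 2 (0.154) or methylparaben replicate 1 (0.0608). POLE2 (chromosome 14, 49643555 to 49688422) had 1.63 and 1.57 CPM with methylparaben and 5.53 and 6.49 CPM with ethanol, at -1.87 ± 0.62 with an adjusted p of 0.0393. It rested on 9 counts with methylparaben and 28 with ethanol, 89.2% of them on noncoding processed transcripts, and the call was lost in 10 of 17 alternatives, among them DESeq2 (0.200) and leaving out any library (0.208 to 0.379). PRIM2, the large primase subunit, did not pass the threshold, with 52.0 and 46.6 CPM in the methylparaben libraries, against 39.1 and 38.5 CPM in the ethanol libraries, at 0.35 ± 0.25 (adjusted p = 0.302). Not tested, POLE, the catalytic subunit of polymerase epsilon, had 16 counts with methylparaben and 3 with ethanol, a ratio of 4.45 (exact binomial 95% interval 1.27 to 23.8), where retained-intron transcripts held 84.2% of the reads and no single-transcript base is protein-coding. The intervals given for ratios of counts cover counting error only, and replicates varied by more than that. POLA2 had 12 counts with methylparaben and 6 with ethanol.

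Of the 3 clamp loader genes tested, RFC3 fell, RFC1 rose and RFC5 did not pass the threshold. RFC3 (chromosome 13, 33818049 to 33966558), a small subunit of the loader that opens the PCNA ring, had 86.8 and 87.4 CPM in the methylparaben libraries, against 184 and 232 CPM in the ethanol libraries. The groups were well apart, and the log2 fold change was -1.25 ± 0.19 with an adjusted p of 0.00122. RFC1 (chromosome 4, 39287456 to 39366375), the large subunit of the same loader, had 7.89 and 12.0 CPM with methylparaben, against 0.425 and 0.433 CPM with ethanol. It had 52 counts in the methylparaben group and 2 in the ethanol group, a ratio of 21.7 (exact binomial 95% interval 5.71 to 184), with an adjusted p of 0.00237. These RFC1 reads were spread over 7 of its 17 transcripts, with 35.2% on protein-coding, 40.7% on retained-intron, 18.5% on processed and 5.56% on nonsense-mediated decay transcripts. The protein-coding reads came from the 584-base transcript RFC1-216, with 13 and 6 counts in the methylparaben libraries and 0 in both ethanol libraries, which holds 292 of the 311 single-transcript bases on protein-coding RFC1 transcripts. RFC5 had 7.62 and 7.33 CPM with methylparaben and 7.23 and 10.8 CPM with ethanol, at -0.27 ± 0.47. RFC4, not tested, had 15 counts with methylparaben and 8 with ethanol.

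FEN1 (chromosome 11, 61792637 to 61797244), the nuclease that trims flaps from Okazaki fragments, had 27.8 and 26.7 CPM in the methylparaben libraries, against 95.7 and 91.8 CPM in the ethanol libraries. Replicates lay close together, and the log2 fold change of -1.78 ± 0.24 had the smallest p of the 24 genes, with an adjusted p of 0.000569. WDHD1 (chromosome 14, 54938950 to 55027105), the And-1 protein that links the helicase to polymerase alpha, had 15.5 and 9.42 CPM with methylparaben, against 49.3 and 36.4 CPM with ethanol, at -1.74 ± 0.35 with an adjusted p of 0.00443. Its fellow fork proteins were too sparse to test. CLSPN, the adaptor that brings the checkpoint kinase CHEK1 to stalled forks, had 0 counts in both methylparaben libraries and 10 and 5 counts in the ethanol libraries. TIMELESS had 3 and 5 counts with methylparaben, against 15 and 5 counts with ethanol, a ratio of 0.334 (exact binomial 95% interval 0.127 to 0.791). At 2.62 CPM, methylparaben replicate 2 lay above ethanol replicate 2 at 2.16 CPM, so the groups overlapped.

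None of the RPA genes passed the threshold, although all were below 0. RPA2 had 6.80 and 1.57 CPM in the methylparaben libraries and 14.5 and 12.1 CPM in the ethanol libraries, at -1.52 ± 0.59 with an adjusted p of 0.0662. Without methylparaben replicate 1 its log2 fold change was -3.04 (adjusted p = 0.00225), and with library size as the scaling the adjusted p was 0.0421. Processed pseudogenes of RPA2 also held reads, RPA2P3 with 6 and 6 counts in methylparaben and 16 and 9 counts in ethanol libraries, so part of the RPA2 signal could be split. RPA3 had 17.4 and 11.0 CPM with methylparaben and 17.9 and 26.0 CPM with ethanol, at -0.59 ± 0.38. RPA1, at -0.50 ± 0.52, had 7.62 and 15.2 CPM with methylparaben and 22.1 and 9.09 CPM with ethanol, so the groups overlapped. No gene of deoxynucleotide supply in the list could be tested, TYMS and RRM2 having 3 counts and 1 count in all and RRM1 and TK1 none.

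**Figure D3:**
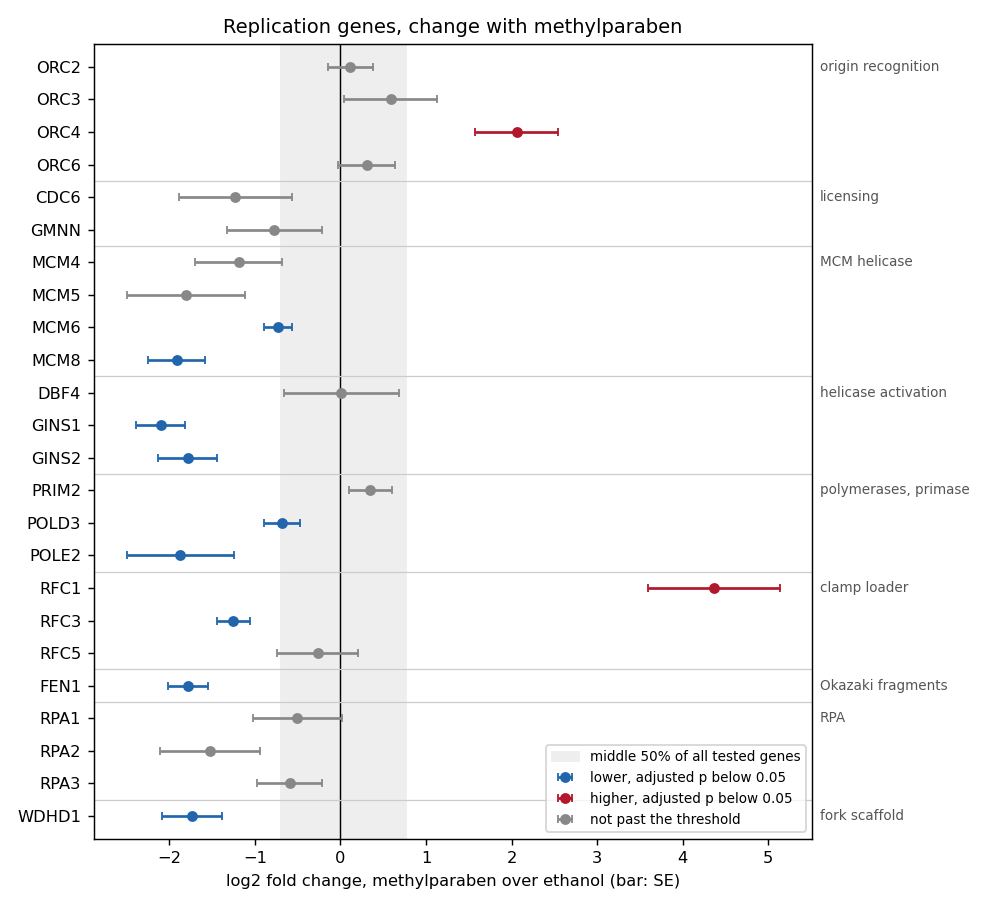
Log2 fold change of methylparaben over ethanol (x axis) with its SE for the 24 tested replication genes, blue for lower and red for higher past the threshold, grey otherwise, beside the middle 50% of all 8055 tested genes. The 9 lower genes lie between -2.10 and -0.68, and the 2 higher genes, ORC4 and RFC1, at 2.06 and 4.36.

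The types of transcript that were read differed between the groups. Protein-coding transcripts held 82.2% and 85.2% of the counts of the 50 genes with methylparaben, against 91.9% and 92.9% with ethanol, and retained-intron transcripts held 13.7% and 11.0% with methylparaben, against 6.21% and 5.57% with ethanol. The same shift was seen over all counts, where retained-intron transcripts held 4.22% and 3.95% with methylparaben and 2.73% and 2.73% with ethanol. Tested transcript by transcript, 9 of 23 transcripts of the replication genes fell and 3 rose, where 19.1% of all 9167 tested fell and 20.3% rose (39.4% in either direction). By type, 8 of 14 protein-coding transcripts of the replication genes fell and 0 rose, with a median log2 fold change of -1.05, where over all 4662 protein-coding transcripts 25.4% fell and 14.7% rose, with a median of -0.18. Of 8 retained-intron transcripts 1 fell and 2 rose, with a median of 0.19, where over all 1545 such transcripts 6.02% fell and 39.7% rose, with a median of 1.02. Of the 14 protein-coding transcripts 13 were below 0 and 9 had an unadjusted p under 0.05, where 2707 of all 4662 (58.1%) were below 0 and 2287 had such a p.

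**Figure D4:**
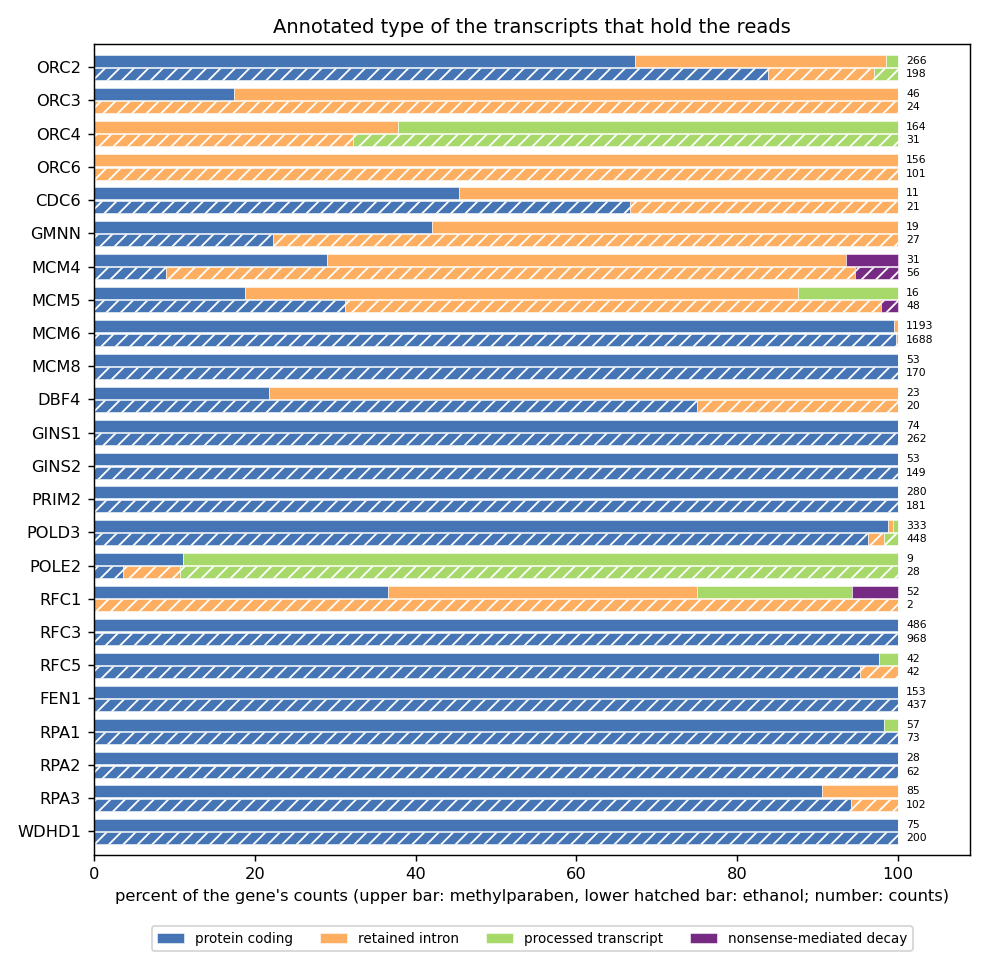
For each of the 24 tested replication genes, the share of its counts (x axis, percent) on transcripts of each annotated type, in methylparaben cells (upper, plain bar) and ethanol cells (lower, hatched bar), with the number of counts at the right. MCM6, MCM8, GINS1, GINS2, POLD3, RFC3, FEN1 and WDHD1, of the 9 genes that fell, are read almost wholly on protein-coding transcripts, and ORC4 has none of its reads there.

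ORC2 had tested transcripts of both types within a gene. Its protein-coding transcript ORC2-201 had 127 and 51 counts in the methylparaben libraries and 83 and 83 counts in the ethanol libraries, at -0.23 ± 0.29. Its retained-intron transcript ORC2-204 had 57 and 22 counts with methylparaben, against 10 and 14 counts with ethanol, at 1.37 ± 0.48 with an adjusted p of 0.0447. That call was lost with library size only (0.0536), the replicate block (0.072), no filter (0.115) and DESeq2 (0.154), and without ethanol replicate 1 (0.201), ethanol replicate 2 (0.0849) or methylparaben replicate 1 (0.216). A test of the difference between transcripts of a gene (diffSpliceDGE of edgeR, chosen after the values were seen) gave ORC2 an adjusted p of 0.0197, where 484 of 1172 genes passed, but 0.056 to 0.209 when any library was left out. For ORC4, the retained-intron transcript ORC4-208 had 43 and 10 counts with methylparaben and 7 and 1 counts with ethanol, and the processed transcript ORC4-210 had 74 and 27 with methylparaben and 16 and 5 with ethanol. Both rose, with adjusted p of 0.0370 and 0.0204, and each missed the threshold without ethanol replicate 2 (0.202 and 0.116) and without methylparaben replicate 1 (0.434 and 0.0539). The retained-intron transcript that fell was MCM4-212, with 15 and 5 counts with methylparaben and 23 and 24 counts with ethanol, at -1.55 ± 0.53 with an adjusted p of 0.0403, which was above 0.05 without any one library (0.0614 to 0.159). When the counts of protein-coding transcripts alone were summed per gene, 7 of 14 tested genes fell and 0 rose, where 22.4% of 4487 genes fell and 19.3% rose (41.6% in either direction). Leaving out ethanol replicate 1 or ethanol replicate 2 from this sum called 0 of all genes by edgeR, with 1562 and 1501 at an unadjusted p under 0.05, 6 and 7 of them replication genes.

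**Figure D5:**
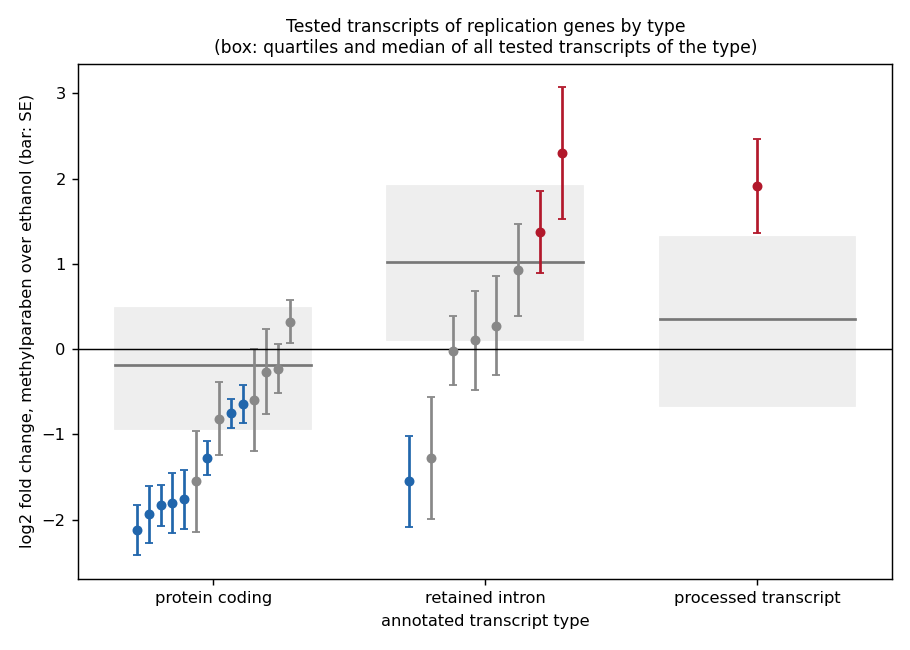
Log2 fold change of methylparaben over ethanol (y axis) with its SE for the 23 tested transcripts of replication genes, by annotated type, blue for lower and red for higher past the threshold, with boxes for the quartiles and median of all tested transcripts of each type. The protein-coding transcripts lie mostly below 0, and the retained-intron ones lie on both sides of it.

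Other listed genes of the same pathway fell more often than they rose. These lists were chosen with earlier results of these data known. Their counts therefore describe the listed genes and cannot test independently whether the pathway fell. Of 84 other genes listed for replication, nucleotide supply, the replication checkpoint and E2F control, 37 could be tested, of which 16 fell and 4 rose, with a median log2 fold change of -0.38, where 18.4% of all tested genes fell and 18.5% rose, with a median of 0.03. In the fork and origin list 7 of 15 tested genes fell and 2 rose. TOP2A, topoisomerase II alpha, was at -1.57 ± 0.17, MCMBP, which binds MCM subunits, at -1.44 ± 0.18, the histone chaperone gene ASF1A at -1.35 ± 0.17, MTBP, a partner of the origin factor TICRR, at -1.30 ± 0.21, and DSCC1, of an alternative clamp loader, at -1.15 ± 0.19. ATAD5, which unloads PCNA, was higher at 1.03 ± 0.24. In nucleotide supply 3 of 8 fell and 0 rose. GMPS was at -1.57 ± 0.26 and PAICS at -1.71 ± 0.58, both enzymes of purine synthesis.

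Of 6 tested checkpoint genes, WEE1, the kinase that holds CDK1 inactive, fell, with a log2 fold change of -1.82 ± 0.30, and ATM, the double-strand break kinase, rose, by a log2 fold change of 2.02 ± 0.31, and retained-intron transcripts held 37.8% of its reads. Of 8 tested genes of E2F control and the S-phase cyclins, 5 fell and 1 rose. TFDP1, a DNA-binding partner of E2F proteins, had 5.99 and 7.33 CPM in the methylparaben libraries, against 36.1 and 67.1 CPM in the ethanol libraries. Its log2 fold change was -2.97 ± 0.40 with an adjusted p of 0.000599. CDK2, the S-phase kinase, was at -2.09 ± 0.44, its cyclin gene CCNE2 at -2.35 ± 0.65, RBL1, which encodes the pocket protein p107, at -1.87 ± 0.29, and FOXM1, a mitotic transcription factor gene mostly (77.1%) read on retained-intron transcripts, at -3.02 ± 0.98. E2F5, a repressive E2F, was higher at 2.42 ± 0.28, with 98.8% of its reads on transcripts annotated for nonsense-mediated decay.

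In the authors' deposited table, 16 transcripts of 13 of the 50 genes have an adjusted p below 0.05, of an unnamed test without a fold change. The smallest in the authors' deposited table are those of FEN1-201 at 1e-09, RFC3-201 at 3e-09 and GINS1-201 at 2.7e-08. That is 16.0% of the transcripts of these genes with a read, against 11.1% of all transcripts with a read in the authors' deposited table.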

How the data were processed

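RNA-seq was measured in 2 methylparaben and 2 ethanol libraries. The authors deposited a table of raw counts for each annotated transcript, with FPKM values, log2 of FPKM plus 1, p-values and adjusted p-values per transcript. Aligner and counting program: not given in the sources used here. Per the submitters' processing notes the build was GRCh38 and the tools included DESeq2, limma and edgeR. All 206601 transcripts match GENCODE release 29, from which single-transcript bases were derived without regard to strand, so a base shared with an antisense or overlapping gene is left out.

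Counts were summed per gene, filtered with filterByExpr (minimum count 10, minimum total 15), scaled by TMM and tested two-sided by edgeR's quasi-likelihood method (version 4.0.16, under R 4.3.3). P-values were adjusted after Benjamini and Hochberg across 8055 genes, and likewise per transcript. CPM are TMM-scaled except the limits for 0 counts, ± is an SE or SD with n = 2 per group, and the SE is the size of the log2 fold change over the square root of F. The scripts were tested on simulated data. Members and lists were chosen with earlier results of these data known. All tested members, untested members with 10 or more counts, and up to 6 called genes of each other list are named. Some genes of these lists are not reported here. Alternatives used DESeq2 1.42.0, limma 3.58.1 (voom, and FPKM with pseudocounts of 1 and 0.1), other scalings and filters, a replicate block, transcript types and leaving out each library.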

Additional observations from a re-analysis of the deposited data

How the results depend on the processing

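Of 413 recomputed log2 fold changes of the tested genes, 376 kept their direction and side of the threshold, 19 lost and 9 gained the call, and 9 changed sign, none of them called. DBF4 was at -0.11 with library size only, which shifts the median of all genes by -0.11, at -0.0062 with voom, and between -0.49 and 0.79 without 1 library. ORC2 was at -0.14 without retained-intron transcripts, at -0.067 on protein-coding transcripts only, and between -0.10 and 0.31 without 1 library, RFC5 between -0.55 and 0.062, and RPA1 between -0.999 and 0.27.

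All genes called numbered 2976, against 1867 on protein-coding transcripts only, 1899 by limma on log2(FPKM + 0.1), and 1677 to 3095 without 1 library. On protein-coding transcripts only, 0 of the 50 genes were higher, and 1 (RFC1) without the filter. Transcripts called higher numbered 1 by DESeq2 and 0 to 3 without 1 library, and genes lower on protein-coding transcripts 0 to 8. The causes were not tested, beyond fewer counts and libraries entering these fits. Where 1 library is left out, the lone one is assumed to vary like the other group.

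With the replicate number as a block, 2488 genes were called, with 8 of the 50 lower and 2 higher. Nothing labelled ties equal numbers together, and deviations of same-numbered libraries correlated at -0.15. The crossed pairing, added after seeing the data, called 3292 genes, with 9 of the 50 lower and 2 higher. With too few counts to pass the filter, 26 of the 50 genes were not tested.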
